A study of Mus musculus with 32 samples.

Results

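The cells described here are stromal cells of the marrow adipogenic lineage, called MALP-like after marrow adipogenic lineage progenitors, in cultures of bone marrow-derived stromal cells grown under osteogenic conditions (BMSC-OBs). They were chosen by a score, the mean of log(1 + UMIs per 10000) over *Cxcl12*, *Esm1*, *Lpl*, *Kng1*, *Kitl*, *Igfbp4* and *Rspo3*, where a UMI (unique molecular identifier) marks a single captured transcript. A cell was eligible if it held 3000 or more UMIs and 400 to 6200 genes, if mitochondrial genes took no more than 10% of its UMIs, and if it had fewer than 2 UMIs per 10000 of *Tyrobp*, a leukocyte adaptor gene. Of 107853 barcodes, 52939 were eligible, and the 7941 cells at or above the score cut of 1.69 were the top 15% over all pools together. After 143 of them with 2% or more of their UMIs in *Ibsp*, the bone sialoprotein gene, were taken out, 7798 MALP-like cells were left, which were 14.7% of the eligible cells. The other 45141 eligible cells are the remaining cells below.

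The donors were Diversity Outbred (DO) mice, outbred animals that descend from several inbred founder strains, so each mouse has its own genotype. Marrow of the femur was cultured in medium with ascorbic acid, β-glycerophosphate and dexamethasone, a glucocorticoid, which all groups of cells compared here therefore shared. Cells of 4 to 5 mice were combined into each of 16 pools and loaded on droplets with a 3′ kit. The study used male and female mice. Their age was not given in the sources used here, cells were not assigned to mice, and the pool is the replicate throughout. There was no untreated arm and no second culture condition, so every comparison is between groups of cells of the same pools.

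Cells that carry high *Cxcl12* and *Kitl* line the sinusoids of the marrow, where they hold blood stem cells and B-cell precursors in place. Much of this network is also primed for the adipocyte lineage: it uses *Adipoq*, *Lpl*, *Pparg* and *Cebpa* without storing fat, sends out signals to vessels and osteoclasts, and can give rise to marrow adipocytes. In culture such cells grow beside osteoblasts, which secrete type I collagen and the mineral-binding phosphoproteins of bone.

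Both sequencing runs of a pool held the same droplets: 100% of the MALP-like cells' barcodes were present in the other run of their pool. Values are therefore from a single run, and no droplet enters them more than once. Different pools shared between 0.0545% and 0.434% of their barcodes, and 20 MALP-like cells carried the barcode text of a MALP-like cell of another pool. The pools held 53990642 to 100777353 UMIs in total, and pool 13 had the shallowest eligible cells, with a median of 11314.5 UMIs. Doublets were scored but kept. Of the MALP-like cells 3.45% were called doublets, against 6.67% of the remaining cells, and the share was lower in MALP-like cells in 16 of 16 pools.

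MALP-like cells were found in every pool, at shares from 6.67% of eligible cells in pool 5 (95% exact Clopper-Pearson interval 5.87 to 7.56) to 29.7% in pool 1 (28.0 to 31.5). The median pool had 13.1%, and the mean over pools was 15.1% ± 7.23 (SD, n = 16). Pools 1, 6 and 7 stood above the others with shares of 26.1% to 29.7%, while the other 13 pools had at most 16.8%. The number of MALP-like cells per pool was between 231 in pool 5 and 1138 in pool 6. The intervals cover counting error only. As mice were mixed within a pool, a share says nothing of a single mouse.

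**Figure D1:**
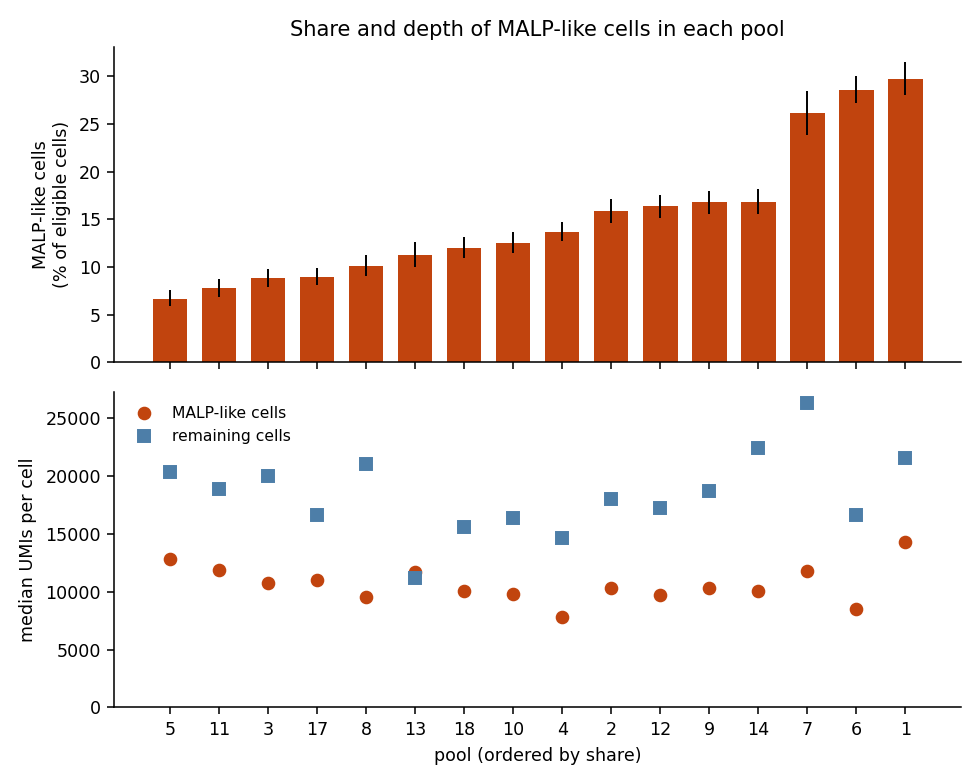
Share of MALP-like cells among eligible cells (bars, %, with 95% exact Clopper-Pearson intervals) and median UMIs per cell of MALP-like cells (circles) and remaining cells (squares) in each of the 16 pools, ordered by share. Pools 1, 6 and 7 have the 3 highest shares, and the circle lies below the square in every pool except pool 13.

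No relation of the share to the depth of the pool was detected. Pearson's r with the median UMIs of eligible cells was 0.060 (permutation p = 0.824) and Spearman's rho was -0.068 (permutation p = 0.807) over 16 pools, both 0.824 after Benjamini-Hochberg adjustment over these 2 tests. Without pools 13 and 7, whose depth lay farthest from the median, r was -0.24 (p = 0.404 by permutation). MALP-like cells themselves were shallower than the cells beside them. Their median was 10312.5 UMIs and 3374 genes per cell, against 18074 UMIs and 3761 genes in the remaining cells, and their median was the lower one in 15 of 16 pools. The median share of mitochondrial UMIs, which the rule limited, was 3.98% against 2.96%.

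The genes of the score are given as a description, since they chose the cells. All values below are UMIs summed per pool and group as CPM (each gene's UMIs relative to the total of its library), scaled by TMM, which sets the bulk of the genes of both groups equal. *Cxcl12*, the chemokine that retains blood progenitors, had 7107, 8615 and 12733 CPM in the lowest, median and highest pool of MALP-like cells, and 114, 233 and 454 CPM in the remaining cells. *Igfbp4*, an IGF-binding protein, had 4027, 5078 and 6151 CPM against 234, 367 and 667 CPM. *Lpl*, the lipase that frees fatty acids from circulating lipoproteins, had 1590, 2214 and 3108 CPM against 24.8, 105 and 184 CPM. *Kitl*, the stem cell factor gene, had a median of 906 CPM against 57.6, *Esm1* of 686 against 25.2, the kininogen gene *Kng1* of 233 against 4.68 and *Rspo3*, a Wnt-enhancing R-spondin, of 179 against 7.34. None of the 7 genes overlapped between both groups of 16 pools. *Ibsp*, which served to exclude cells, had medians of 1858 CPM in MALP-like and 61044 CPM in remaining cells.

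Cells close to the cut on both sides were much alike, and whether the scores form a continuum was not tested. The 500 cells just inside the cut had scores of 1.69 to 1.81 and the 500 just outside 1.58 to 1.69. At 3000 UMIs per cell, *Adipoq* was detected in 37.6% of the cells just inside and 34.8% of those just outside, *Cebpa* in 32.6% and 31.2%, *Vcam1* in 36.4% and 32.8%, and *Lepr* in 13.8% and 10.8%. The typical MALP-like cell lay far from the cut, with a median score of 2.49, against 0.179 in the remaining cells.

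The name was set beside 16 identity genes of marrow adipogenic and perivascular stroma that were not in the score. Their list was written with earlier results of these data known, so it is no independent check of the name. All 16 were higher in MALP-like than in remaining cells in each of the 16 pools, with a median log2 fold change of 3.53, where the median of all 15396 genes tested was -0.01. In this comparison 73.4% of all genes tested were called at an adjusted p of 0.05 (edgeR quasi-likelihood, Benjamini-Hochberg), 35.4% as higher and 38.0% as lower, and 15.4% were higher in every pool. The calls say that a difference recurred over the pools. Since MALP-like cells were chosen on transcripts of the same droplets, genes that vary with the score tend to differ too, and the calls are not evidence apart from that choice. For 14 of the 16 genes the lowest pool of MALP-like cells lay above the highest pool of remaining cells, which held for 6.33% of all genes tested, and *Pdgfrb* and *Agt* were the exceptions.

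**Figure D2:**
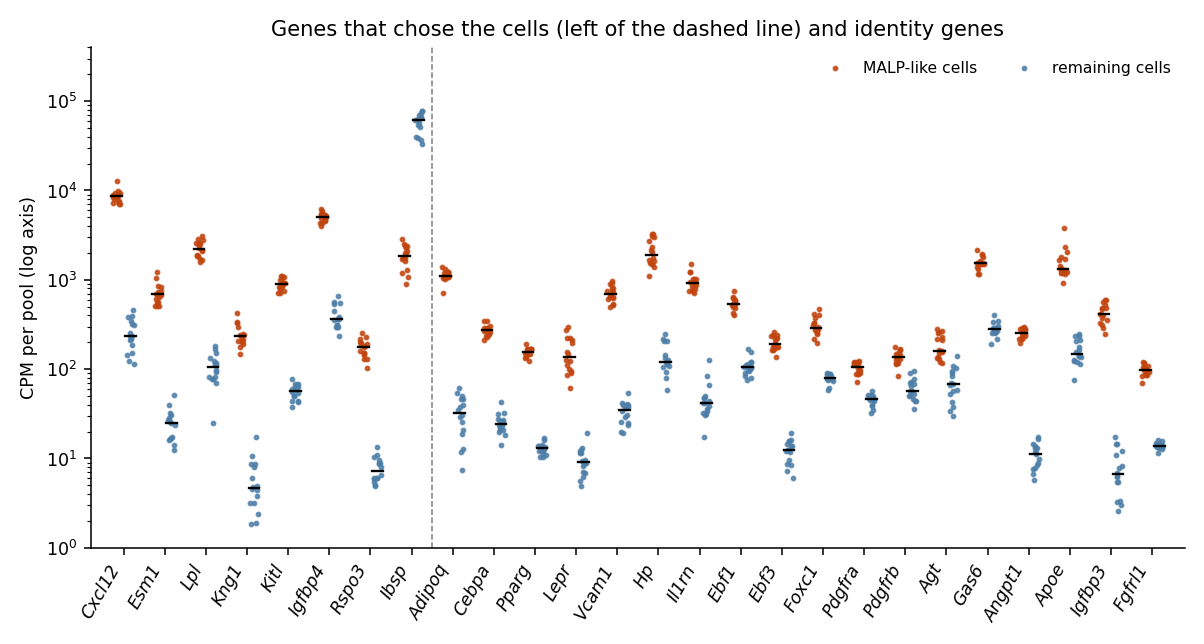
CPM per pool (log axis; 1 point per pool, 16 pools; black bars are medians) of genes that chose the cells, left of the dashed line, and of identity genes with *Igfbp3* and *Fgfrl1*, right of it, in MALP-like cells (orange) and remaining cells (blue). For *Adipoq* the MALP-like pools lie between 716 and 1386 CPM and the remaining cells between 7.46 and 61.6 CPM, while for *Pdgfrb* and *Agt* the clouds overlap.

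*Pparg*, the nuclear receptor that drives adipogenesis, had 122, 157 and 191 CPM in the lowest, median and highest pool, against 10.3, 13.1 and 16.8 CPM in remaining cells (log2 fold change 3.59 ± 0.06, SE). *Cebpa*, its partner factor, had 211, 274 and 347 CPM against 14.3, 24.3 and 43.4 CPM (3.47 ± 0.08). Both were clear of the remaining cells in all pools. *Adipoq*, which encodes the hormone adiponectin (chromosome 16, 23146536 to 23158028, GRCm38), had 716, 1116 and 1386 CPM against 7.46, 32.6 and 61.6 CPM (5.27 ± 0.21). The lowest *Adipoq* value was that of pool 2.

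Of 16 adipogenic transcription factors, 12 were higher and 4 lower, where 35.4% of all genes tested were called higher and 38.0% lower. These shares are the background for each list counted below against remaining cells. The early B-cell factors, which act upstream of *Pparg* and maintain the stromal niche, were among the higher ones: *Ebf3* by 4.04 on the log2 scale, *Ebf2* by 2.73 and *Ebf1* by 2.36. *Zfp423*, a preadipocyte factor, was higher by 2.25 and *Klf15* by 2.08. The 4 lower factors were *Klf4* (-2.55), *Klf5* (-1.82), *Srebf1* (-0.42), the activator of fatty acid synthesis, and *Cebpb* (-0.32), which acts early in adipogenesis.

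Of the other identity genes, *Lepr*, the leptin receptor, had 61.8, 137 and 294 CPM against 4.91, 9.12 and 19.2 CPM (log2 fold change 3.96 ± 0.15). *Vcam1*, an adhesion molecule for blood cells, had 495, 694 and 973 CPM against 19.2, 35.1 and 54.3 CPM (4.43 ± 0.10). *Foxc1*, a niche factor, was higher by 1.94, and the PDGF receptors *Pdgfra* and *Pdgfrb*, which many mesenchymal cells carry, by 1.203 and 1.18. Outside the identity list, *Ghr*, the growth hormone receptor, was higher by 2.72 and *Tgfbr3*, a TGF-β co-receptor, by 3.31.

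At a fixed depth of 3000 UMIs, *Adipoq* was detected in 72.0% ± 5.11 (SD, n = 16 pools) of MALP-like cells and 4.42% of remaining cells. Free RNA in droplets gives a floor for such shares, and in 7563 *Tyrobp*-high cells, leukocytes by that gene, which should lack it, *Adipoq* was detected in 3.48%. *Pparg* was detected in 35.5% of MALP-like, 3.41% of remaining and 2.75% of *Tyrobp*-high cells, and *Lepr* in 35.3%, 2.56% and 0.610%. Without thinning the shares in MALP-like cells were 83.3% for *Adipoq*, 65.0% for *Pparg* and 59.8% for *Lepr*, at median depths of 10312.5 UMIs in MALP-like and 6416 UMIs in *Tyrobp*-high cells. *Ibsp* was detected in 90.7% of MALP-like cells and *Col1a1* in 83.8%, against 89.1% and 86.6% of *Tyrobp*-high cells. Detection of these bone matrix transcripts was close to that in *Tyrobp*-high cells and was not read as expression.

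Among genes of at least 20 CPM, *Igfbp3* (chromosome 11, 7206086 to 7213923), which binds IGF1, had the largest increase, with 249, 415 and 598 CPM against 2.58, 6.65 and 17.4 CPM (log2 fold change 5.90 ± 0.17). The next 9 were *Kng2* (5.65), *Pdzrn4* (5.63), *Wdr86* (5.63), *Timp4* (5.47), *Fmo2* (5.34), *Gm4951* (5.31), *Atp6v1c2* (5.29), *Adipoq* (5.27) and *Negr1* (5.16). *Timp4* inhibits matrix metalloproteinases, *Fmo2* encodes a flavin-containing monooxygenase, and *Negr1* a neuronal adhesion molecule. Each of the 10 was higher in 16 of 16 pools, with no overlap.

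*Kng2* and *Adipoq* are neighbors of *Kng1*, a gene of the score. The 3 genes lie between positions 22985854 and 23158028 of chromosome 16, with gaps of 28.4 and 64.5 kb. *Eif4a2* and *Rfc4*, which lie between *Kng1* and *Adipoq*, had values of 0.46 (adjusted p = 2.01e-11) and -0.20 (adjusted p = 0.095) on the log2 scale. The stretch was looked at after its values were seen. *Kng1* and *Kng2* are close copies of each other, so reads may have been divided between them.

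The genes the study itself linked to MALPs give no independent check, as they were picked on these samples. All 30 of the first MALP marker genes in its list outside the score were higher (median log2 fold change 2.96), as were all 8 genes outside the score that it names in the adipogenic network around *Fgfrl1* (3.02). *Fgfrl1* (chromosome 5, 108692382 to 108706924), a receptor that binds FGF but lacks the kinase domain, had 70.3, 97.1 and 121 CPM against 11.4, 13.6 and 16.1 CPM (2.80 ± 0.05). *Plpp3*, a lipid phosphatase of that network, had 444, 579 and 1003 CPM against 15.6, 26.0 and 42.6 CPM (4.51 ± 0.09). *Fgfrl1* was clear of the remaining cells in every pool.

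Of the 19 genes of the blood cell niche tested, 11 were higher and 4 lower (median 0.84). Some genes stand in more than 1 list, such as *Vcam1* and *Angpt1*, which are identity genes too, so the list counts are not separate results. *Il7*, needed by B-cell precursors, had 19.6, 33.9 and 82.0 CPM against 0.815, 1.40 and 3.99 CPM, and *Il15*, needed by natural killer cells, 15.6, 24.4 and 34.5 CPM against 0.546, 0.993 and 2.29 CPM. *Angpt1*, a ligand of the endothelial TIE2 receptor, had 196, 254 and 296 CPM against 5.73, 11.3 and 17.3 CPM. These 3 were raised by 4.65, 4.58 and 4.56 on the log2 scale. *Ptn* (-4.27), *Spp1* (-2.10), *Tgfb1* (-1.64) and *Lif* (-1.28) were lower. *Ccl2*, *Ccl7*, *Il6* and *Cxcl10* did not pass, with values from -0.02 to 0.43.

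For signals to osteoclasts, 3 of 7 genes were higher, near the share of all genes called higher, and none was lower. With the other cells limited to *Ibsp* under 2% of UMIs 3 were lower, and against contractile cells 3 were higher and 3 lower, among them *Tnfrsf11b* (-0.99) and *Wnt5a* (-1.04). *Tnfsf11*, which encodes RANKL, had 14.95, 32.9 and 64.3 CPM against 1.67, 2.88 and 5.81 CPM (3.38 ± 0.15). *Il34* was higher by 2.83 and *Csf1* by 1.33, both ligands of the macrophage receptor CSF1R. The decoy receptor of RANKL, *Tnfrsf11b*, had a value of -0.21 that did not pass.

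In the Wnt list 7 of 24 genes tested were higher and 14 lower (median -0.72). The higher ones included the secreted frizzled-related genes *Sfrp1* (3.46) and *Sfrp4* (1.71), *Wnt4* (2.69) and *Rspo2* (1.98). *Sost*, the osteocyte Wnt inhibitor, had 0, 1.77 and 4.32 CPM in MALP-like cells against 23.9, 97.3 and 343 CPM, and *Dkk1*, another inhibitor, 0, 0.425 and 1.13 CPM against 5.87, 16.4 and 36.1 CPM. *Tcf7*, *Wnt10b* and *Lgr6* were lower by 3.80, 4.06 and 4.24 on the log2 scale. Relative to the remaining cells the Wnt antagonists thus divided by gene, with *Sfrp1* high and *Sost* and *Dkk1* low in the same cells. Against the contractile cells described below, 7 of 22 Wnt genes tested were higher and 12 lower. There *Sfrp1* was higher by 2.04, *Sost* was lower by only 0.82, *Rspo2* (0.08) did not pass, and *Dkk1* was not among the genes tested.

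Genes of the BMP and TGF-β families, receptors included, also went both ways (15 of 29 genes tested higher, 9 lower, median 0.22). Of all genes tested 35.4% were called higher and 38.0% lower. *Gdf10* was higher by 5.02, the BMP inhibitor *Chrdl1* by 4.83, *Bmp6* by 3.16, *Grem1* by 2.89 and *Bmp4* by 2.24. *Bambi*, a decoy BMP receptor, was lower by 3.94 and *Inhba*, the activin A subunit, by 2.98. The receptors *Tgfbr1* and *Tgfbr2* had values of 0.05 and -0.02 that did not pass, and *Bmpr1a* and *Bmpr2* were higher by 0.17 and 0.26.

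Vascular and basement membrane genes were mostly higher (15 of 21, 4 lower, median 1.10). *Vegfc*, the lymphatic growth factor, had 147, 214 and 265 CPM against 2.84, 7.62 and 11.8 CPM (4.84 ± 0.10). *Col4a1*, *Nid1* and *Lamb1* of the basement membrane were higher by 2.64, 2.51 and 2.07. *Vegfa* was slightly lower (-0.33). The neuropilins differed in sign: *Nrp1* was higher by 2.83 and *Nrp2* lower by 2.79, with 109 CPM in the median pool of MALP-like cells and 691 CPM in remaining cells.

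In the IGF axis 7 of 12 genes were higher and 3 lower (median 1.81). *Igfbp5* had 204, 481 and 1744 CPM against 16.04, 55.7 and 199 CPM, so its own range over the pools of MALP-like cells was wide. *Igf1* was higher by 2.21 and *Pappa*, the protease that cleaves IGFBP4, by 2.23. *Igfbp6* (-3.25) and the receptor *Igf1r* (-0.59) were lower.

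Complement, acute-phase and protease inhibitor genes were higher for 16 of 23, with 4 lower (median 1.90). *Hp*, haptoglobin, had 1111, 1913 and 3299 CPM against 57.9, 121 and 245 CPM, and *Il1rn*, the interleukin 1 receptor antagonist, 711, 913 and 1487 CPM against 17.3, 41.6 and 127 CPM. *Steap4* was higher by 5.08, *Serpina3g* by 4.72, *Clu* by 3.97 and *C4b* by 3.54. *C3*, the central complement component, did not pass, with a value of -0.28. *Il1rn* was detected in 75.9% of MALP-like cells at 3000 UMIs and in 30.4% of *Tyrobp*-high cells. Whether the latter express it or hold free RNA was not tested.

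Dexamethasone was in the medium of every pool. Of 17 glucocorticoid-responsive genes 9 were higher and 4 lower (median 0.32). The glucocorticoid-induced genes *Fkbp5* (0.06) and *Per1* (0.03) did not pass, and *Tsc22d3* was higher by 0.41. *Sult1a1* (3.95) and *Glul* (3.205) were the 2 with the largest increase, and the metallothioneins *Mt1* (-1.11) and *Mt2* (-1.15) were lower.

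Of 27 osteoblast genes 25 were called lower, 24 of them in every pool against 20.1% of all genes tested, with a median log2 fold change of -3.79. Of the 45141 cells they were compared with, 28333 had at least 2% of their UMIs in *Ibsp*. *Bglap*, osteocalcin, had 44.4, 127 and 302 CPM in MALP-like cells against 2429.7, 5982 and 15479.8 CPM, and *Dmp1*, an osteocyte matrix gene, 3.11, 7.06 and 46.9 CPM against 152, 439 and 662 CPM. *Bglap*, *Bglap2* and *Bglap3* are near-identical copies, so the division of reads among them is uncertain. *Col1a1* was lower by 5.10 and *Mepe* by 5.84. Among genes of at least 20 CPM in remaining cells that were lower in every pool, the 10 lowest were *Sost* (-6.17), *Kcnk1* (-5.99), *Mlip* (-5.96), *Mepe* (-5.84), *Iglc1* (-5.84), *Ptprz1* (-5.81), *Lipc* (-5.78), *Thbs4* (-5.76), *Col13a1* (-5.70) and *Bglap2* (-5.68). Of these, *Iglc1* is an immunoglobulin gene of B-lineage cells.

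*Runx2*, which all osteogenic and many stromal cells use, had 85.6, 113 and 137 CPM in MALP-like cells against 102, 122 and 143 CPM, a log2 fold change of -0.12 ± 0.05 (adjusted p = 0.026) that turned to 0.32 when libraries were scaled by their totals. *Sp7*, osterix, had 32.05, 68.6 and 111 CPM against 112, 152 and 220 CPM (-1.28 ± 0.08). *Dlx5* was higher by 0.29, the only member of the list that was, and *Omd* had a value of -0.06 that did not pass. *Runx2* levels thus overlapped between the groups while those of *Sp7* just missed each other.

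The 10 leading genes of MALP-like cells took 6.73% to 9.80% of UMIs per pool, against 6.77% to 7.90% in the contractile-score cells described below and 12.2% to 19.2% in the remaining cells, where *Ibsp* alone took 4.91% over all pools. Scaling by library totals instead of TMM moved the median log2 fold change of all genes up by 0.44 and the share of calls that were higher from 48.2% to 75.5%. Changes here are relative to the bulk of genes in this sense.

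The summed level of 12 leukocyte markers was 90.1 to 499.6 CPM in MALP-like cells and 136 to 783 CPM in remaining cells, and was lower in MALP-like cells in 15 of 16 pools. That of 9 endothelial markers was 8.53 to 36.8 CPM against 12.1 to 51.7 CPM, with *Cdh5*, *Tek* and *Tie1* at 0 CPM in the median pool. *Egfl7* went the other way and made up most of this sum, with a median of 12.3 CPM against 7.34 CPM (log2 fold change 0.78). That of 8 pericyte and smooth muscle markers was 22.5 to 63.4 CPM against 89.7 to 351 CPM, lower in all 16 pools, although *Notch3* of that list was higher, with a median of 21.6 CPM against 14.6 CPM (0.70). That of 6 glial markers was 15.97 to 101 CPM against 11.1 to 45.9 CPM and was higher in MALP-like cells in all 16 pools. The increase lay in *S100b*, which is not restricted to glia and was higher by 1.70 in 16 of 16 pools. *Sox10* and *Ngfr* of that list were lower by 3.60 and 3.16, but at very low levels. Their medians were 0 CPM in MALP-like cells, against 0.183 and 0.511 CPM in remaining cells. *Gfra3* was at 0 in every pool of MALP-like cells.

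A further comparison was with stromal cells that are low in *Ibsp* but rich in contractile transcripts. They were the top 15% of eligible cells by a score of *Acta2*, *Tagln*, *Myl9*, *Cnn1* and *Thbs1*, with *Ibsp* under 2% of UMIs and without MALP-like cells, and numbered 5171. They were deeper, with a median of 19667 UMIs and 4239 genes against 10312.5 UMIs and 3374 genes in MALP-like cells, and the 9119 calls of this comparison became 5815 when cells were thinned to 3000 UMIs before the score and the sums. Both scores overlapped: 1566 MALP-like cells, or 20.1%, were also in the top 15% of the contractile score. Against these cells, 70.5% of 12932 genes tested were called, 37.5% as higher in MALP-like cells and 33.0% as lower.

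Against the contractile cells 15 of the 16 identity genes were higher, with a median log2 fold change of 3.18, and all 15 did so without overlap, which 4.72% of all genes tested did. *Adipoq* had 758, 1186 and 1470.4 CPM against 7.17, 15.6 and 27.0 CPM (6.27 ± 0.15). *Pdgfrb* was the exception, with 143 CPM in the median pool against 134 CPM (0.09 ± 0.05, adjusted p = 0.100). *Agt*, angiotensinogen, had 124, 172 and 299 CPM against 10.5, 21.2 and 40.0 CPM here. *Igfbp3* again led the genes of at least 20 CPM, with 264, 442 and 630 CPM against 0.770, 2.84 and 9.19 CPM (7.06 ± 0.18).

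The other 4 leading genes of this comparison were genes of fat cells. They were *Adig* (6.78), *Plin1* (6.68), the perilipin that coats lipid droplets, *Cidec* (6.63), which fuses them, and *Retn* (6.53), which encodes resistin. Much of this rests on few cells. The 204 fat-rich cells described below, 2.62% of MALP-like cells, held 89.97% of their *Cidec*, 81.7% of their *Retn* and 48.3% of their *Plin1* UMIs. After thinning, *Cidec* was detected in 2.39%, *Retn* in 3.57% and *Plin1* in 7.17% of MALP-like cells. *Adig* was not counted in this way. Of 27 mature adipocyte genes tested 23 were higher and 3 lower, with a median of 2.51. In the comparison with all remaining cells, 21 of 28 were higher and 5 lower (median 1.57), and *Cfd*, the adipsin gene, did not pass there (0.51), while against contractile cells it was higher by 6.03. The same 204 cells held 95.4% of the *Cfd* UMIs of MALP-like cells.

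Contractile genes outside the contractile score were lower in MALP-like cells for 20 of 22 (median -1.23), and *Cyr61* alone was higher (0.58). As the other cells were chosen for contractile transcripts, genes that vary with these tend to be lower in MALP-like cells by that choice. *Timp3* had 111, 257 and 337 CPM against 930, 1467 and 3625 CPM, and *Csrp2* 66.7, 115 and 190 CPM against 445, 726 and 1426 CPM. The 5 lowest genes of at least 20 CPM in contractile cells that were lower in every pool were *Tnn* (-5.41), *Pgam2* (-4.73), *Ankrd1* (-4.55), *Slc1a1* (-4.43) and *Ptn* (-4.38). *Inhba*, the activin subunit, fell by 4.19 on the log2 scale, with 8.45, 11.3 and 27.9 CPM against 147, 233 and 311 CPM.

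Cell-cycle genes were lower than in the contractile cells for 22 of 25 (median -0.76), and 0 were higher. None of the 25 was lower in every pool, against 14.7% of all genes tested, and *Mki67* (-0.70) was lower in 10 of 16 pools. Against all remaining cells none of the 25 passed in either direction by edgeR's quasi-likelihood test, where 1 had an unadjusted p under 0.05, and by DESeq2 1 was lower. The count changed with the setting. With library totals 8 were higher, in the top 20% of the score 4 were higher, in the top 10% 9 were lower, after thinning 11 or 10 were lower, and 21 were lower when the remaining cells were limited to those with *Ibsp* under 2% of UMIs. *Top2a*, a gene of dividing cells, was detected in 4.46% of MALP-like cells at 3000 UMIs, 6.03% of remaining, 8.86% of contractile and 7.70% of *Tyrobp*-high cells. Whether *Tyrobp*-high cells divide themselves was not tested, so their share is not a sure background. Cycling was therefore neither read from these shares nor excluded by them.

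**Figure D3:**
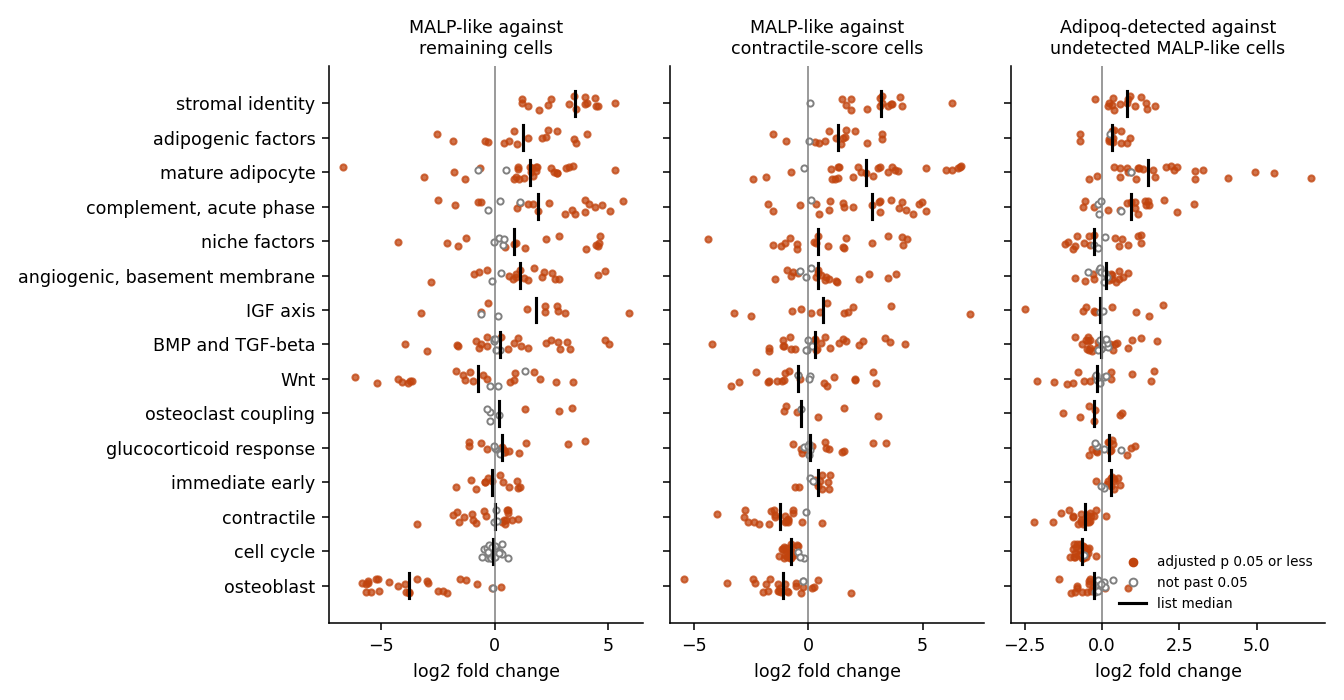
Log2 fold change of each gene of 15 gene lists (points; filled, adjusted p at most 0.05 by edgeR's quasi-likelihood test; open, not past it) and the list median (black bar) in MALP-like against remaining cells, MALP-like against contractile-score cells, and *Adipoq*-detected against *Adipoq*-undetected MALP-like cells. The identity list has medians of 3.53, 3.18 and 0.82, the osteoblast list -3.79, -1.10 and -0.25, and the contractile list 0.02, -1.23 and -0.55.

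Osteoblast genes were lower for 20 of 26 against the contractile cells and higher for 4 (median -1.10). *Col1a1* had 394, 912 and 1191 CPM against 1982, 4489 and 7019 CPM (-2.41 ± 0.08). *Tnn*, *Cthrc1* and *Smpd3* were lower by 5.41, 3.56 and 2.32. *Mepe* (-0.23, adjusted p = 0.160) and *Dmp1* (-0.25, adjusted p = 0.235), both far lower than in the remaining cells, did not pass here. *Runx2* was higher by 0.15, and *Phex*, a phosphate-regulating gene of osteoblasts and osteocytes, by 1.87.

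Against *Ibsp*-high cells alone 77.7% of 14555 genes tested were called, 37.4% as higher in MALP-like cells and 40.3% as lower. All 16 identity genes were higher (median 4.04), 14 of them without overlap, against 8.94% of all genes tested, and 25 of 27 osteoblast genes lower (median -4.47). As *Ibsp* separated these groups, genes that vary with it tend to be lower by that choice, here and, in part, against all remaining cells. Of genes with at least 20 CPM in the higher group that changed the same way in every pool, the 5 highest were *Adipoq* (6.35), *Fmo2* (6.31), *Timp4* (6.26), *Pdzrn4* (6.22) and *Kng2* (6.21). The 5 lowest were *Sost* (-6.92), *Kcnk1* (-6.80), *Mlip* (-6.73), *Chmp4c* (-6.66) and *Mepe* (-6.61). *Acta2* was higher by 1.77 there, while it had a value of 0.10 that did not pass against all remaining cells and was among the genes of the contractile score. The value against remaining cells turned to -0.98 with those limited to *Ibsp* under 2% of UMIs, and to -0.59 in the top 10% of the score. *Runx2* was lower by 0.32, with a range of 80.7 to 126 CPM against 103 to 164 CPM, and was higher by 0.32 when scaled by library totals.

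MALP-like cells were not uniform in *Adipoq*. After each cell was thinned to 3000 UMIs, 5658 MALP-like cells had at least 1 *Adipoq* UMI and 2140 had none, and the share with *Adipoq* was between 59.5% in pool 2 and 77.8% in pool 17. Cells without a detected transcript are not cells without expression. The *Adipoq*-undetected cells had lower scores (median 2.16 against 2.60), more UMIs (median 12102.5 against 9665, the higher in 15 of 16 pools) and more doublet calls (5.14% against 2.81%). For the comparison of both kinds of cells below, 3858 genes were called, 3684 with doublet calls removed, 1913 with cells thinned to 3000 UMIs before the sums and 1305 in the top 10% of the score.

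Between both kinds of MALP-like cells, 33.9% of 11366 genes tested were called, 15.6% as higher in *Adipoq*-detected cells and 18.3% as lower. The groups were divided by a fat-cell transcript, so genes that vary with *Adipoq* tend to differ by that choice. *Cfd*, of whose UMIs 95.4% lay in the 204 fat-rich cells described below, had 8.31, 167 and 644 CPM in *Adipoq*-detected cells against 0, 1.32 and 5.62 CPM (6.75 ± 0.13), *Cidec* had 1.66, 28.6 and 90.1 CPM against 0, 0.717 and 2.81 CPM (5.56 ± 0.18), and *Retn* 9.14, 61.4 and 156 CPM against 0, 1.83 and 10.5 CPM (4.95 ± 0.20). *Adig* was higher by 5.31 and *Gpd1*, which supplies the glycerol backbone of fat, by 4.07. The same 204 cells held 89.97% of *Cidec*, 81.7% of *Retn* and 56.9% of *Gpd1* UMIs of the MALP-like cells, so these changes also rest largely on few cells. Of 26 adipocyte genes tested 23 were higher and 2 lower, with a median of 1.49, and 20 were higher in every pool, against 3.84% of all genes tested. Dissociation and immediate-early genes moved with this contrast: 10 of 13 were higher and 1 lower (median 0.30), and *Ier2* (0.39), *Dnajb1* (0.39) and *Jund* (0.30) were higher in 16 of 16 pools. Against contractile cells 9 of the 13 were higher and 2 lower, and against remaining cells 6 were higher and 7 lower, which turned to 10 and 3 with the other cells limited to *Ibsp* under 2% of UMIs and to 7 and 3 with library totals. Their part in the other results was not tested.

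Of 15 identity genes tested 14 were higher in *Adipoq*-detected cells and 1, *Pdgfrb* (-0.22), was lower, with a median of 0.82. For 4 of the 15 the groups of pools did not overlap, against 0.431% of all genes tested. *Lepr* had 95.6, 188 and 421 CPM against 17.9, 66.6 and 219 CPM (1.45 ± 0.08), and *Vcam1* 676, 1026 and 1348 CPM against 248, 430 and 641 CPM (1.25 ± 0.06). *Agt* and *Apoe* were higher by 1.42 and 1.71, *Foxc1* and *Gas6* by 0.22 and 0.19. Among the score genes, given as values, *Lpl* differed by 1.31, *Kng1* by 0.79, *Cxcl12* by 0.62 and *Rspo3* by -0.05. *Rspo2*, which was not in the score, was lower by 1.14 in *Adipoq*-detected cells (52.5, 67.7 and 131 CPM against 116, 160 and 250 CPM).

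The *Adipoq*-undetected cells carried more contractile transcripts. All 5 genes of the contractile score and 21 of 22 other contractile genes were lower in *Adipoq*-detected cells (median of the latter -0.55), 15 of the 22 in every pool, against 3.17% of all genes tested. *Acta2*, smooth muscle actin, had 337, 696 and 1345 CPM in *Adipoq*-detected cells against 699, 1838 and 2936 CPM (-1.35 ± 0.06), lower in 16 of 16 pools though the ranges overlapped. *Aspn* was lower by 2.21 and *Ccnd1*, cyclin D1, by 1.57, with 44.0, 89.6 and 105 CPM against 115, 246 and 399 CPM. *Igfbp2* (-2.48), *Cnn1* (-2.31) and *Gzme* (-1.80) were also among the 5 lowest genes of at least 20 CPM in *Adipoq*-undetected cells that were lower in every pool. *Col2a1* was the lowest of these (-3.11), with 0, 2.88 and 7.24 CPM against 4.25, 28.3 and 67.1 CPM.

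Cell-cycle genes were lower in *Adipoq*-detected cells for 24 of 25 (median -0.63), but for 0 of 25 in every pool, against 3.17% of all genes tested. The count was 1 of 25 in the top 10% of the score and 1 without the pool as a block, 15 when cells were thinned before the sums, and 17 by DESeq2. *Tnfrsf11b*, the RANKL decoy receptor, was lower by 1.26, while *Il34* was higher by 0.66. Of 21 complement and acute-phase genes 14 were higher and 3 lower (median 0.94), with *Orm1*, orosomucoid, at 1.90, 29.4 and 155 CPM against 0, 3.01 and 22.7 CPM.

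Cells with at least 5 UMIs, of 3000, summed over *Cfd*, *Cidec*, *Retn*, *Plin1* and *Lipe* (a limit set after values had been seen) were 499 of all eligible cells. Of these, 204 were MALP-like cells, or 2.62% of all MALP-like cells, and 295 were not. The 204 cells held 95.4% of all *Cfd* UMIs of the MALP-like cells, 89.97% of *Cidec*, 81.7% of *Retn*, 59.0% of *Lipe* and 48.3% of *Plin1*, but 8.33% of *Adipoq* and 0.863% of *Cxcl12*. The first 5 were the genes that set the limit. Of adipocyte genes that did not set it, the 204 cells held 34.8% of *Fabp4*, 28.7% of *Cd36* and 42.5% of *Scd1* UMIs, so most transcripts of these lay in the other MALP-like cells. *Gpd1*, which did not set it either, went the other way, with 56.9% of its UMIs in the 204 cells.

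The rich cells outside the MALP-like group had a mean of 1.36 *Cxcl12* UMIs of 3000, against 11.3 in the 204 rich MALP-like cells and 35.0 in the other MALP-like cells. *Cxcl12* is a gene of the score, so the rule tends to leave low values outside. It limits only the mean over the score genes, not *Cxcl12* by itself, and the cause of the low value was not tested. *Fabp4*, the fatty acid carrier of adipocytes, had means of 84.8, 74.8 and 3.77 UMIs in these 3 groups, and *Adipoq* 9.42, 14.3 and 4.23. *Lpl*, a gene of the score, had 26.6, 38.6 and 7.21. *Adipoq* was detected in 94.9% of the rich cells outside and 99.5% of those inside. The median score was 1.31 in the rich cells outside, which the cut of 1.69 placed there, and 2.03 in those inside.

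**Figure D4:**
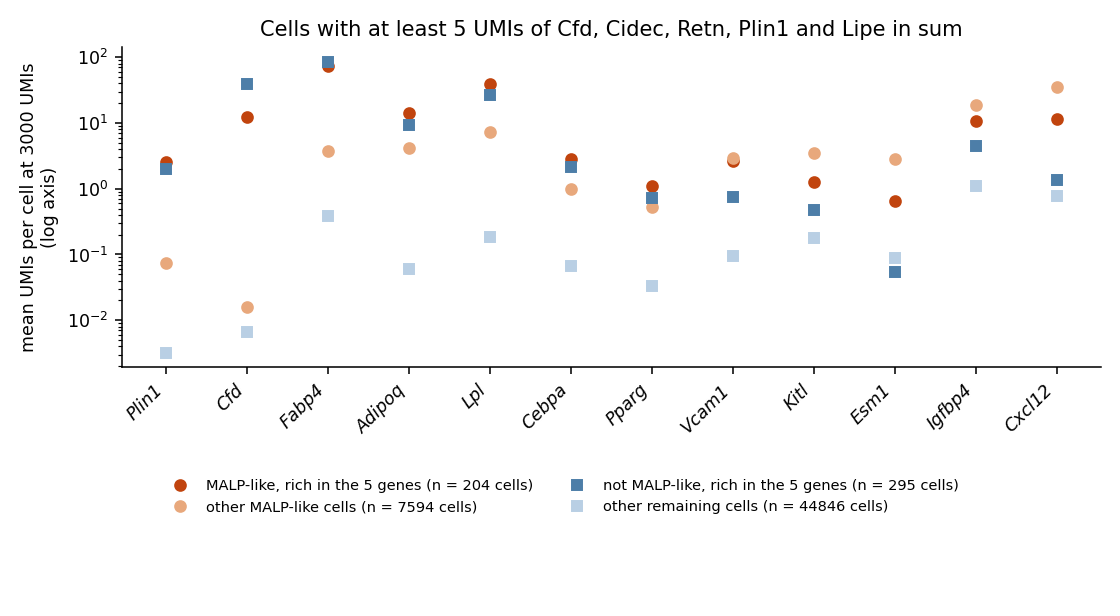
Mean UMIs per cell (log axis), after each cell was thinned to 3000 UMIs, of 12 genes in MALP-like cells (circles) and remaining cells (squares) that had at least 5 UMIs summed over the 5 adipocyte genes (dark) or did not (pale). *Fabp4* has means of 74.8 and 84.8 in both rich groups, against 3.77 in the other MALP-like cells. *Cxcl12*, *Lpl*, *Kitl*, *Esm1* and *Igfbp4* are genes of the score that separated circles from squares.

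Rich cells were present in every pool, 7 to 76 of all eligible cells. Rich MALP-like cells were between 0 in pool 13 and 34 in pool 1, and rich cells outside between 1 in pool 3 and 65 in pool 18. The numbers are too small for a test within pools. Doublet calls were made for 1.96% of the rich MALP-like cells and 4.41% of those outside.

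Most genes of MALP-like cells were steady from pool to pool. Over 2845 genes of at least 50 CPM the SD over 16 pools of log2(CPM + 10) had a median of 0.202 in MALP-like cells and 0.198 in the remaining cells. *Pparg* (0.155), *Angpt1* (0.170), *Cebpa* (0.191) and *Adipoq* (0.209) varied about as much as this median. *Lepr* varied most among the 16 identity genes, with an SD of 0.614, and ranked 62 of all 2845. It had 61.8 CPM in pool 10 and 294 CPM in pool 7, and was detected in 15.8% of MALP-like cells of pool 10 and 56.2% of those of pool 13.

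Some genes differed far more between pools. *Xist*, expressed from the inactive X chromosome of females, had 0 to 891 CPM (SD 2.84), and the immunoglobulin gene *Igkc* 0.570 to 931 CPM, with 3.30 to 9801 CPM in the remaining cells. *Cxcl9*, an interferon-induced chemokine, had an SD of 2.12. It had 599 CPM in pool 8, 418 in pool 6, 223 in pool 18 and 213 in pool 5, while the other 12 pools had 0.508 to 33.5 CPM. In the remaining cells the highest pool had 26.7 CPM. *Cxcl9* was detected in 23.4% of MALP-like cells of pool 8 (66 cells), 9.09% of pool 5, 6.77% of pool 6 and 6.34% of pool 18, and in at most 1.81% elsewhere, against at most 2.52% of *Tyrobp*-high cells in any pool.

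*Cxcl13*, the B-cell chemokine, had another pattern. It had 346 CPM in pool 13, 166 in pool 1 and 101 in pool 9, and 0.565 to 57.1 CPM in the other pools, and was detected in 14.5% of MALP-like cells of pool 13. Its mean share of 2.69% over pools was close to the 2.56% of *Tyrobp*-high cells. Whether those cells express it themselves was not tested, so their share is not a sure background and nothing was read from it. In the median pool it had 14.1 CPM in MALP-like and 0.664 CPM in remaining cells, whose highest pool had 15.4 CPM. *H19*, an imprinted RNA, had 75.9 CPM in pool 13 and 1283 CPM in pool 10, against 37.2 to 245 CPM in remaining cells. *Cfd* (SD 1.23), *Ftl1-ps1* (1.65), a ferritin pseudogene, *Gm10076* (1.32), *Ndufa4l2* (1.21) and *AY036118* (1.19) were the others of the 10 genes with the largest SD. Each pool mixes 4 to 5 genotypes, and whether 1 mouse carries such a value was not tested.

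**Figure D5:**
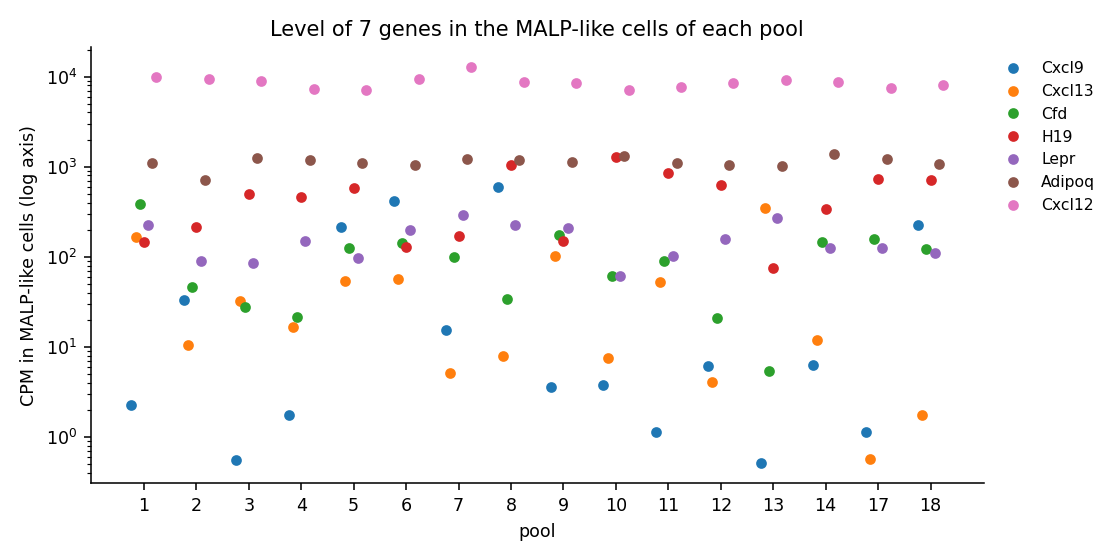
CPM (log axis) of 7 genes in the MALP-like cells of each of the 16 pools (1 point per pool and gene). *Cxcl12* and *Adipoq* stay within 7107 to 12733 and 716 to 1386 CPM, *Lepr* within 61.8 to 294 CPM, while *Cxcl9* spans 0.508 to 599 CPM and *Cxcl13* 0.565 to 346 CPM.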

How the data were processed

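The authors aligned reads with Cell Ranger 5.0.0 to GRCm38 (mm10) and deposited, per pool and run, raw whole-number UMI counts by gene for barcodes that tool called cells, ahead of their further filtering of cells and of matching cells to mice. Coordinates are from GENCODE M21, matched by gene identifier. Here counts were summed per pool and group of cells (at least 20 cells each) and tested with edgeR 4.0.16 in R 4.3.3 (filterByExpr, TMM, quasi-likelihood test, Benjamini-Hochberg over all genes tested), with the pool as a block, since both groups come from the same cultures and loading. The lowest correlation of deviations within a pool over the 4 comparisons was 0.156. Genes of the rule were left out of the calls. Doublets were scored per pool from 2 simulated doublets per barcode (scikit-learn 1.9.0) at 0.8% per 1000 barcodes. The test was checked on simulated data in which 200 genes changed by 1 on the log2 scale. Over the 4 comparisons it recovered 83% to 96.5% of them, with 3.49% to 4.52% false calls. Far more genes were called in the real data, and the check does not cover that setting. Cells per pool and UMIs per cell set the precision: the smallest group held 61 cells. The cells and gene lists were chosen with earlier results of these data known. The rule for named genes took rule and identity genes, up to 4 genes per list changed in every pool, the 10 (otherwise 5) highest and lowest of at least 20 CPM, and the 10 genes varying most. Not all genes it took from the lists are printed, and other list genes were chosen after their values were seen. P-values of the edgeR comparisons set the difference between groups within pools against how much it varied over pools. DESeq2 1.42.0, run 2, other score limits, thinning, library totals and other alternatives are in the closing section.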

Additional observations from a re-analysis of the deposited data

How the results depend on the processing

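With libraries scaled by totals, 9564 genes were higher and 3107 lower than in remaining cells, 10136 and 2539 than in *Ibsp*-high cells, and 7565 and 2445 than in contractile cells. Against contractile cells, thinning to 3000 UMIs before the score and the sums gave 5815 calls (2895 higher), and thinning before the sums 5907 (2963 higher). Between *Adipoq* groups the 3858 calls (1777 higher, 2081 lower) became 1305 (674 and 631) in the top 10% of the score, 5893 (2876 higher, 3017 lower) in the top 20%, 1937 (923 and 1014) with score and sums thinned and 1913 (853 and 1060) with sums thinned; the cause was not tested. Without the pool as a replicate block this pairing lost calls, to 1611 (882 higher, 729 lower), and the other comparisons had 9214, 9476 and 7330 calls.

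The named genes, each counted in every comparison that names it, made 324 results. Of their 4223 values under the alternatives, 4173 kept their direction and side of the threshold. Those that turned against remaining cells were *Runx2* (0.32 with totals, 0.05 against cells with *Ibsp* under 2%, 0.0012 with sums thinned), *Acta2* (-0.59 in the top 10%, -0.0058 with score and sums thinned, -0.010 with sums thinned, -0.98 against cells with *Ibsp* under 2%), *Mki67* (0.17 in the top 20%, 0.061 against other stromal cells, 0.39 with totals) and *Atf3* (0.17 against cells with *Ibsp* under 2%). Against *Ibsp*-high cells *Runx2* turned to 0.32 with totals, and *Mki67* to -0.030 and -0.013 with score and sums or sums thinned. *Sp7* turned to 0.036 between *Adipoq* groups in the top 10%. The limit on *Ibsp* of the other cells was added after seeing the data. Without pools 13 and 7, r of share and depth was -0.24.

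Unthinned, *Adipoq* was detected in 83.3% of MALP-like cells, *Cebpa* in 84.2%, *Pparg* in 65.0%, *Lepr* in 59.8%, *Vcam1* in 89.6%, *Plin1* in 12.6% and *Cfd* in 5.48%. Run 2 chose 7814 cells, 7486 of them the same, and the mean share per pool was 15.1%.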
